A study of Caenorhabditis elegans with 5 samples.

Results

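The flp genes encode the FMRFamide-like neuropeptides of the nematode Caenorhabditis elegans. They were taken as every row of the count tables whose symbol is flp- followed by a digit, which gave 31 of 45251 genes. RNA was measured by 3′ tag sequencing in whole wild-type worms of the N2 strain, staged L4 (the final larval stage) to adult, after 24 h on chemical plates at 20 °C. There were 3 libraries from worms on bisphenol TMC (BPTMC, a bisphenol) and 2 libraries from worms on dimethyl sulfoxide (DMSO, the control), and the labels give 1 mM for both chemicals. All worms fed on Escherichia coli OP50, and all groups share the wild-type genotype. The series title concerns mitochondrial activity, lifespan and healthspan, and the comparison asks how BPTMC changed the transcriptome.

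An flp gene encodes a precursor protein from which short peptides ending in arginine and phenylalanine amide are cut. The precursor is cleaved by the proprotein convertase EGL-3, trimmed by the carboxypeptidase EGL-21, amidated and packed into dense-core vesicles, mostly in neurons. Released peptides act on G protein-coupled receptors of the NPR, FRPR, DMSR and EGL-6 kind and modulate locomotion, feeding, egg laying, sleep and fat storage.

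The libraries held 16531114 to 23579588 counts in BPTMC and 24362712 and 19819975 in DMSO replicates 1 and 2. The flp genes together had 6638, 4975 and 7226 reads in BPTMC replicates 1, 2 and 3, against 3747 and 4584 in DMSO replicates 1 and 2, and single members in single libraries had from 0 to 1529 reads. Of the 31 genes, 30 had enough reads to be tested. The exception, flp-23, had 0, 4 and 8 reads in BPTMC replicates 1, 2 and 3, against 0 and 2 in DMSO replicates 1 and 2. The pooled ratio of flp-23 was 4.38 with an exact 95% interval from 0.975 to 40.3, which covers counting error only. Ribosomal RNA rows took 13.6 to 24.7% of the counts in BPTMC and 17.7 and 11.2% in DMSO replicates 1 and 2.

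DMSO replicate 1 stood apart from the other libraries in this family. It had the lowest normalised level of the 5 libraries for 24 of 30 flp genes, where 13.4% of all 14238 tested genes had their lowest value in that library. BPTMC replicate 3 had the highest level for 18 of 30, where 12.8% of all tested genes had their highest value. DMSO replicate 2 exceeded DMSO replicate 1 for 25 of 30 flp genes, with a median difference of 0.82 on the log2 scale (2 reads added), and for 47.4% of all tested genes. Whether replicates are separate cultures is not stated in the labels, and p-values therefore measure only the spread between these libraries, which may be technical.

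Across the family, flp RNA was higher in BPTMC worms than in DMSO worms in 28 of 30 tested genes, but no single gene passed the test over all genes. Summed over the 31 genes, the level was 325, 254 and 367 CPM (reads scaled to library size and composition by the trimmed mean of M-values, TMM) in BPTMC replicates 1, 2 and 3, against 168 and 215 CPM in DMSO replicates 1 and 2. The lowest BPTMC sum thus lay above the highest DMSO sum. In whole worms a change in RNA per neuron and a change in the share of neurons cannot be told apart.

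The median log2 fold change of the 30 genes was 1.01, with quartiles at 0.87 and 1.26, and all 14238 tested genes together had a median of -0.09. A positive fold change was found for 45.5% of all tested genes. Without DMSO replicate 1, the median of the family was 0.65 against 0.10 for all tested genes, and 28 of 30 members kept a positive sign, where 54.3% of all tested genes were positive. Without DMSO replicate 2 the median was 1.71. Against DMSO replicate 2 alone, BPTMC replicate 3 was higher in 28 of 30 flp genes, with a median log2 difference of 0.95. BPTMC replicates 1 and 2 were higher in 19 and 21 of 30, with medians of 0.33 and 0.26. All tested genes had medians of 0.16, 0.03 and -0.13 for BPTMC replicates 1, 2 and 3 against that library. The family's difference from DMSO replicate 2 was thus largest in BPTMC replicate 3.

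**Figure D1:**
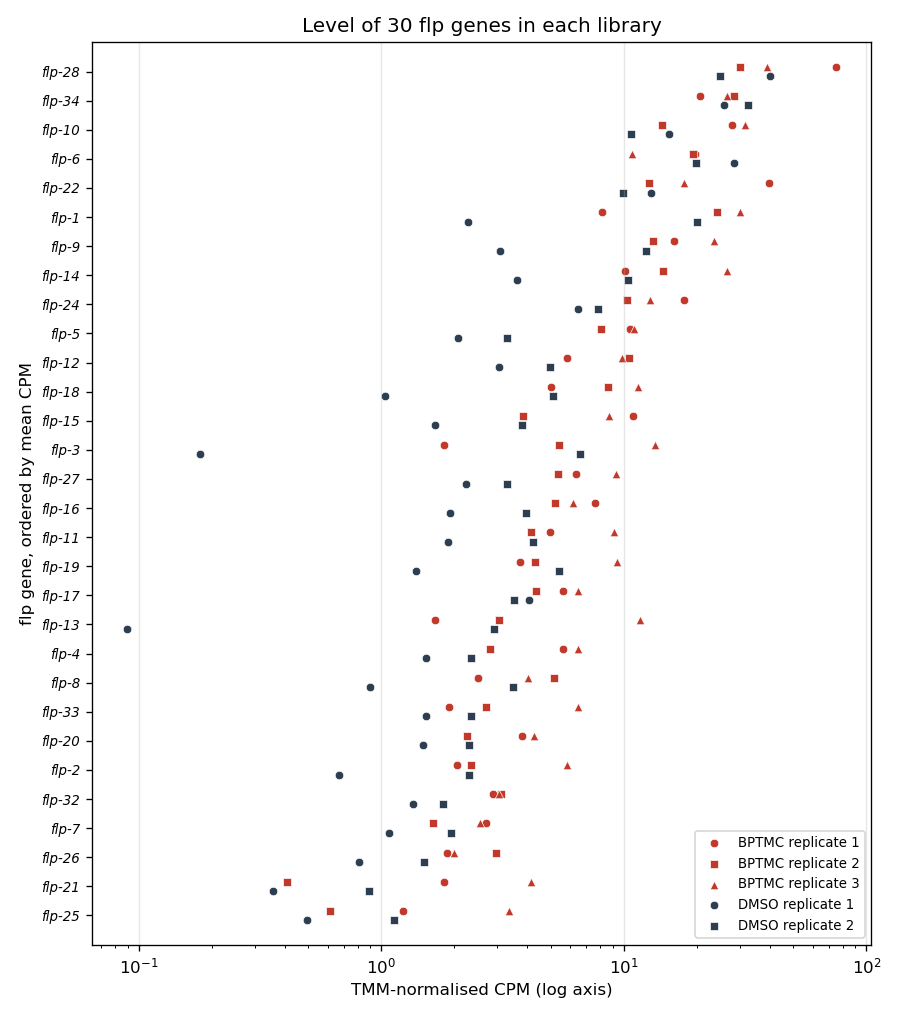
TMM-normalised CPM of the 30 tested flp genes (log axis, genes down the page) in each library, with BPTMC libraries in red above DMSO libraries in dark blue. DMSO replicate 1 (dark circles) lies lowest for 24 of the 30 genes, and BPTMC replicate 3 (red triangles) lies highest for 18.

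None of the 30 genes, 0 in either direction, was called by edgeR's quasi-likelihood test at a Benjamini-Hochberg adjusted p under 0.05, and adjusted p ran from 0.320 to 0.851. Over all tested genes it called 0.105% in the higher direction and 0.0% in the lower. With p left unadjusted and under 0.05, 5 flp genes were higher and 0 lower. That is 16.7% of the family, where 7.0% of all tested genes were higher and 0.4% lower at that level. DESeq2 called 1 flp gene, flp-5, where it called 1.67% of all tested genes in that direction and 0.0211% in the other. limma-voom called 0, with 0.00702% of all tested genes called higher and 0.0% lower. Without DMSO replicate 1, the count at an unadjusted p under 0.05 was 0, where 6.53% of all tested genes were higher at that level. The count was 1 without BPTMC replicate 3, where 4.62% of all tested genes were higher at that level, and 9 without DMSO replicate 2, where 2.97% were.

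For 11 of 30 flp genes every BPTMC library exceeded every DMSO library, and for 1, flp-6, every BPTMC library lay below. Such separation was found for 13.4% of all tested genes upwards and 9.96% downwards. The 11 were flp-4, flp-5, flp-9, flp-12, flp-15, flp-16, flp-17, flp-24, flp-26, flp-27 and flp-32. In the other 18 genes the groups overlapped.

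**Figure D2:**
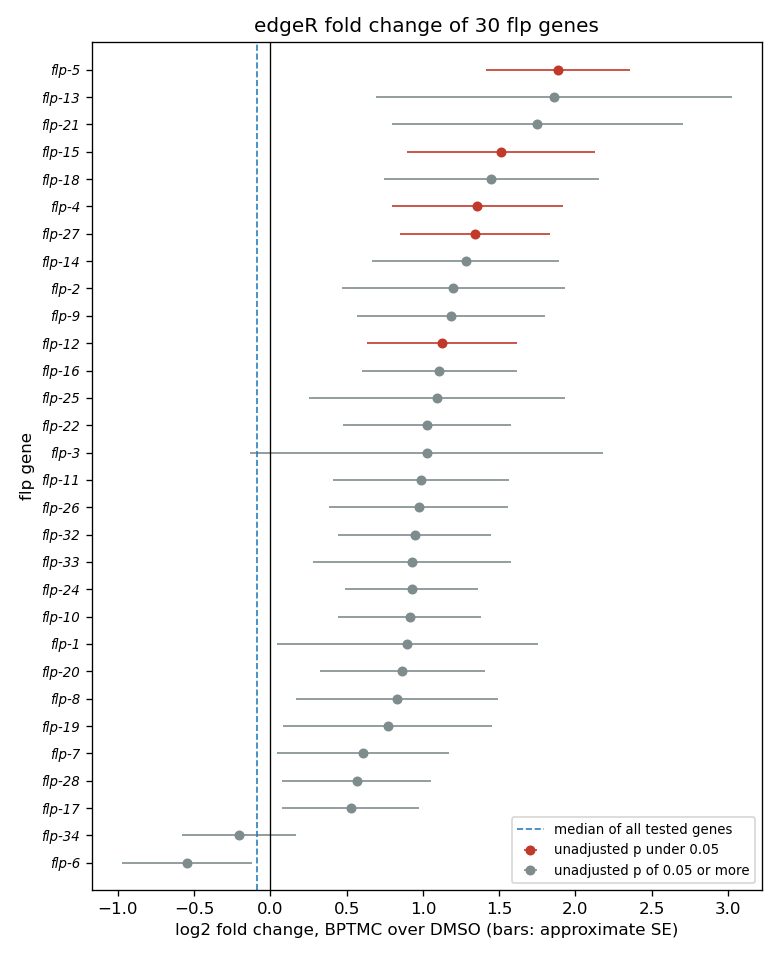
Log2 fold change of BPTMC over DMSO for the 30 tested flp genes with approximate standard errors, from edgeR over all 5 libraries. The 5 genes with an unadjusted p under 0.05 are in red, 28 genes lie right of 0, and the dashed line is the median of all tested genes at -0.09.

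The member with the smallest p was flp-5 (WBGene00001448), whose peptides excite the pharynx, the feeding pump of the worm. It lies on chromosome X from 8528250 to 8531076, plus strand, on WBcel235. Its level was 10.6, 8.07 and 11.03 CPM in BPTMC replicates 1, 2 and 3, against 2.06 and 3.29 CPM in DMSO replicates 1 and 2. Every BPTMC library lay well above both DMSO libraries, and the BPTMC libraries were close to each other. The log2 fold change was 1.88 ± 0.47 (SE), with an edgeR adjusted p of 0.320 and a DESeq2 adjusted p of 0.0228. The log2 fold change was 1.57 without DMSO replicate 1 and 2.28 without DMSO replicate 2. These fits keep only 1 DMSO library, so they are left out of the range of adjusted p that follows. With other scalings or filters, without rRNA genes or with 1 BPTMC library left out, the edgeR adjusted p ran from 0.224 to 0.810. With the replicate number as a block it was 0.00194. That fit takes the BPTMC effect from replicates 1 and 2 only, because BPTMC replicate 3 has no DMSO partner, and the labels do not pair the libraries.

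Next came flp-27 (WBGene00016114, chromosome II, 5681003 to 5682667, plus strand), with 6.36, 5.36 and 9.30 CPM in BPTMC replicates 1, 2 and 3, against 2.24 and 3.29 CPM in DMSO replicates 1 and 2. All BPTMC libraries lay above both DMSO libraries, and the log2 fold change was 1.34 ± 0.49 (edgeR adjusted p = 0.601). flp-12 (WBGene00001455, chromosome X, 4591281 to 4592350, minus strand), a peptide gene that acts in the turning of males in mating, had 5.82, 10.5 and 9.81 CPM in BPTMC replicates 1, 2 and 3, against 3.05 and 4.94 CPM in DMSO replicates 1 and 2. BPTMC replicate 1 stood close to DMSO replicate 2 for this gene, and the log2 fold change was 1.13 ± 0.49 (edgeR adjusted p = 0.672). Without DMSO replicate 1 the log2 fold changes were 1.08 for flp-27 and 0.81 for flp-12.

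A pair of receptor ligands completed the 5. flp-15 (WBGene00001458, chromosome III, 13663400 to 13667839, minus strand), which encodes ligands of NPR-3, had 10.9, 3.83 and 8.64 CPM in BPTMC replicates 1, 2 and 3, against 1.66 and 3.81 CPM in DMSO replicates 1 and 2. BPTMC replicate 2 and DMSO replicate 2 were almost level, so its separation rests on a very small difference between these libraries. The log2 fold change of flp-15 was 1.51 ± 0.62 (edgeR adjusted p = 0.643), and 1.02 without DMSO replicate 1. flp-4 (WBGene00001447, chromosome II, 10048868 to 10055594, plus strand), which encodes ligands of NPR-4, had 5.62, 2.81 and 6.46 CPM in BPTMC replicates 1, 2 and 3, against 1.52 and 2.35 CPM in DMSO replicates 1 and 2. Here too BPTMC replicate 2 stood nearest to the DMSO libraries, and the log2 fold change was 1.36 ± 0.56 (edgeR adjusted p = 0.644), or 1.06 without DMSO replicate 1.

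The 5 flp genes with the most reads, flp-28, flp-34, flp-10, flp-6 and flp-22, made up 47.6% of the family's mean CPM. Reads of 3′ tag libraries come from the transcript end, so CPM were not divided by length, and levels of different genes on this scale are a description only. None of the 5 had an unadjusted p under 0.05, and in 4 of them DMSO replicate 1 was above DMSO replicate 2, opposite to most of the family. Summed, the 5 stood at 182, 105 and 126 CPM in BPTMC replicates 1, 2 and 3, against 123 and 97.7 CPM in DMSO replicates 1 and 2, so the groups overlapped. The other 26 genes summed to 142, 149 and 242 CPM in BPTMC replicates 1, 2 and 3, against 45.2 and 118 CPM in DMSO replicates 1 and 2, and there the groups did not overlap.

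flp-28 (WBGene00044686, chromosome X, 10087314 to 10087966, minus strand) had 74.8, 30.1 and 39.0 CPM in BPTMC replicates 1, 2 and 3, against 39.99 and 24.8 CPM in DMSO replicates 1 and 2. BPTMC replicate 1 alone was far above the rest, and the log2 fold change was 0.57 ± 0.49. flp-22 (WBGene00009562, chromosome I, 8658899 to 8659967, plus strand) had 39.6, 12.7 and 17.7 CPM in BPTMC replicates 1, 2 and 3, against 12.9 and 9.92 CPM in DMSO replicates 1 and 2. The high value again belonged to BPTMC replicate 1, and the log2 fold change was 1.03 ± 0.55.

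The 2 genes with a fold change below 0 both lie on chromosome V. flp-6 (WBGene00001449, 9471975 to 9473792, plus strand), a signal of thermosensory neurons linked to lifespan at warm temperature, had 19.6, 19.3 and 10.8 CPM in BPTMC replicates 1, 2 and 3, against 28.5 and 19.9 CPM in DMSO replicates 1 and 2. DMSO replicate 2 was level with BPTMC replicates 1 and 2, and the log2 fold change was -0.54 ± 0.43 (edgeR adjusted p = 0.834), or -0.27 without DMSO replicate 1. flp-34 (WBGene00019975, 1027891 to 1033404, minus strand), which encodes ligands of NPR-11 that act in aversive olfactory learning, had 20.6, 28.5 and 26.6 CPM in BPTMC replicates 1, 2 and 3, against 25.7 and 32.4 CPM in DMSO replicates 1 and 2. The groups overlapped, and its log2 fold change of -0.20 ± 0.37 had the opposite sign, at 0.0086, without BPTMC replicate 1.

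The ligands of EGL-6, a receptor that inhibits egg laying, are encoded by flp-10 and flp-17. flp-10 (WBGene00001453, chromosome IV, 7868907 to 7870081, plus strand) had 27.8, 14.3 and 31.6 CPM in BPTMC replicates 1, 2 and 3, against 15.4 and 10.7 CPM in DMSO replicates 1 and 2. BPTMC replicate 2 lay within the DMSO range, and the log2 fold change was 0.91 ± 0.47. flp-17 had 5.62, 4.34 and 6.46 CPM in BPTMC replicates 1, 2 and 3, against 4.08 and 3.53 CPM in DMSO replicates 1 and 2. The groups of flp-17 did not overlap but were close, with a log2 fold change of 0.53 ± 0.45.

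Among 5 genes of sleep and arousal, all had a positive fold change, from 0.86 to 1.86, and none had an unadjusted p under 0.05. flp-24, which acts with flp-13 in the ALA neuron in sleep after stress, had 17.7, 10.3 and 12.9 CPM in BPTMC replicates 1, 2 and 3, against 6.49 and 7.85 CPM in DMSO replicates 1 and 2, with no overlap. flp-13 had 1.66, 3.06 and 11.6 CPM in BPTMC replicates 1, 2 and 3, against 0.0896 and 2.91 CPM in DMSO replicates 1 and 2. The value in DMSO replicate 1 is 2 reads, and the fold change of flp-13, 1.86 ± 1.17 on the log2 scale, was 0.89 without that library. The other members were flp-11 of the sleep neuron RIS (0.99 ± 0.58), flp-2 (1.20 ± 0.73) and flp-20 of the touch neurons (0.86 ± 0.54), both of which promote arousal, and in these 3 the groups overlapped.

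The genes tied to locomotion, feeding state and fat gave 4 of 4 positive fold changes, all with overlapping groups and none with an unadjusted p under 0.05. flp-18, whose peptides act on NPR-4 and NPR-5, had 4.99, 8.58 and 11.4 CPM in BPTMC replicates 1, 2 and 3, against 1.03 and 5.08 CPM in DMSO replicates 1 and 2. BPTMC replicate 1 and DMSO replicate 2 were level, and the log2 fold change of 1.45 ± 0.70 was 0.70 without DMSO replicate 1. flp-21, a ligand gene of the aggregation receptor NPR-1, had a log2 fold change of 1.75 ± 0.96 at 0.408 to 4.12 CPM in BPTMC and 0.358 and 0.893 CPM in DMSO. flp-7, which acts in serotonin-induced fat loss, had 0.61 ± 0.56.

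In flp-1, flp-3 and flp-13, chosen after their values were seen, the DMSO libraries differed from each other more than BPTMC differed from DMSO. flp-1, which acts from the AVK neurons on posture and locomotion, had 8.12, 24.1 and 29.998 CPM in BPTMC replicates 1, 2 and 3, against 2.28 and 20.0 CPM in DMSO replicates 1 and 2. flp-3 had 1.81, 5.41 and 13.4 CPM in BPTMC replicates 1, 2 and 3, against 0.179 and 6.58 CPM in DMSO replicates 1 and 2. In both genes BPTMC replicate 1 was the lowest BPTMC library and DMSO replicate 1 the lowest of all. The difference of DMSO replicate 2 over replicate 1 was 3.08 for flp-1, 4.63 for flp-3 and 4.07 for flp-13 on the log2 scale. The log2 fold changes of flp-1 and flp-3 were 0.90 ± 0.86 and 1.02 ± 1.16, and without DMSO replicate 1 they were 0.042 and 0.049. Over the family, the gap between the DMSO libraries was larger than the fold change in 13 of 30 genes. The matching share of all tested genes was not computed, so this count does not set the family apart.

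Marker lists of other tissues also differed between libraries. In 7 tested pharynx markers of a list of 10, DMSO replicate 1 was lowest and BPTMC replicate 3 highest, and the mean log2 level around each gene's mean was -1.22, 0.42 and 1.60 in BPTMC replicates 1, 2 and 3, against -1.60 and 0.81 in DMSO replicates 1 and 2. The summed CPM of that list ran from 28.2 to 103 in BPTMC, against 30.1 and 65.4 in DMSO, and phat-1 was at 0 reads in every library. The median log2 fold change of the pharynx list was 0.71, with 6 of 7 positive, and -0.25 without DMSO replicate 1. The 33 tested sperm genes stood at 1.76, -1.14 and 1.14 in BPTMC replicates 1, 2 and 3, against -0.32 and -1.43 in DMSO replicates 1 and 2, and their summed CPM ran from 73.3 to 476 in BPTMC, against 115 and 62.7 in DMSO. Their median log2 fold change was 1.91, with 32 of 33 positive, and 2.60 without DMSO replicate 1. Of these 33, 14 were higher at an unadjusted edgeR p under 0.05, where 7.0% of all tested genes were. In 0 of the 33 did every BPTMC library lie above every DMSO library, where 13.4% of all tested genes did. The 13 germline and oocyte genes stood at -1.53 in BPTMC replicate 1 and between -0.09 and 0.83 in the other 4 libraries, with summed CPM of 1044 to 3958 in BPTMC, against 2357 and 4880 in DMSO. Of these 13, only 1 was positive, and their median was -0.49.

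Of 11 tested intestine markers, 8 were positive with a median log2 fold change of 0.88, and their summed CPM ran from 2162 to 4786 in BPTMC, against 3172 and 2011 in DMSO. Of 9 tested hypodermis markers, 6 were positive with a median of 0.83, and their summed CPM ran from 355 to 753 in BPTMC, against 637 and 550 in DMSO. Of 10 tested body wall muscle markers, 9 were positive with a median of 0.54, and their summed CPM ran from 1071 to 2602 in BPTMC, against 1436 and 1082 in DMSO. The 6 vitellogenins, yolk proteins of the adult hermaphrodite intestine, had a median of -0.21, with 3 positive. Their summed CPM ran from 14524 to 26053 in BPTMC, against 13894 and 16364 in DMSO. At an unadjusted edgeR p under 0.05, 2 vitellogenins were lower and 0 higher, where 0.4% of all tested genes were lower and 7.0% higher. The summed levels of these 4 lists overlapped between the groups, while the median fold changes of the intestine, hypodermis, body wall muscle, pharynx and sperm lists, like that of the flp genes, lay above the -0.09 of all tested genes. The part of these lists in the flp values was not tested.

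Of the 31 flp genes, 13 lie on chromosome X, or 41.9%, whereas 13.7% of annotated protein-coding genes do. On the log2 scale the median fold change was 0.97 for these 13 and 1.09 for the 17 tested autosomal genes. flp-28, flp-3 and flp-2 lie side by side on the minus strand of chromosome X within 7.93 kb, and each overlaps the antisense gene W07E11.1. Their libraries did not move together: BPTMC replicate 1 was the highest for flp-28 and the lowest BPTMC library for flp-3 and flp-2. The strand setting of the counting is not given in the sources used here. An exon of another gene reaches into the last 500 bases of 5 flp genes: flp-11, flp-16, flp-17, flp-19 and flp-33. Of these, flp-16 lies opposite romo-1, a gene with 1532 to 3982 reads in BPTMC and 5969 and 2768 in DMSO, so its 102 to 156 reads in BPTMC, against 43 and 84 in DMSO, may include reads of romo-1. The 25 tested genes without such an overlap had a median fold change of 1.03 on the log2 scale, with 23 positive and 5 with an unadjusted p under 0.05.

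Pan-neuronal genes, which are active in most or all neurons, had a median nearer to 0 than the flp genes. Of the 20 listed, all with enough reads to be tested, 13 were positive with a median log2 fold change of 0.28, and edgeR, DESeq2 and limma-voom each called 0 over all genes. Only unc-13 had an unadjusted p under 0.05 in edgeR, where 7.0% of all tested genes were higher at that level. unc-13, which primes synaptic vesicles for release, had 9.29, 3.78 and 9.51 CPM in BPTMC replicates 1, 2 and 3, against 1.93 and 1.83 CPM in DMSO replicates 1 and 2, and a log2 fold change of 1.998 ± 0.57 (edgeR adjusted p = 0.432). aex-3, a regulator of the vesicle GTPase RAB-3, had 1.60 ± 0.75, and unc-64, the neuronal syntaxin, 0.87 ± 0.46. Summed, the 20 genes stood at 262, 291 and 307 CPM in BPTMC replicates 1, 2 and 3, against 247 and 316 CPM in DMSO replicates 1 and 2, so the groups overlapped. Without DMSO replicate 1 their median was 0.027.

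Set against these genes, the flp reads per pan-neuronal read were 1.24, 0.871 and 1.20 in BPTMC replicates 1, 2 and 3, against 0.681 and 0.683 in DMSO replicates 1 and 2. The DMSO libraries were level on this scale and lay below every BPTMC library. Without the 5 flp genes with the most reads, the values were 0.542, 0.512 and 0.787 in BPTMC replicates 1, 2 and 3, against 0.183 and 0.373 in DMSO replicates 1 and 2, where the DMSO libraries were again apart from each other. The edgeR test with libraries scaled to the pan-neuronal genes, chosen after the data were seen, gave a family median of 0.99 and again 0 flp genes called.

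**Figure D3:**
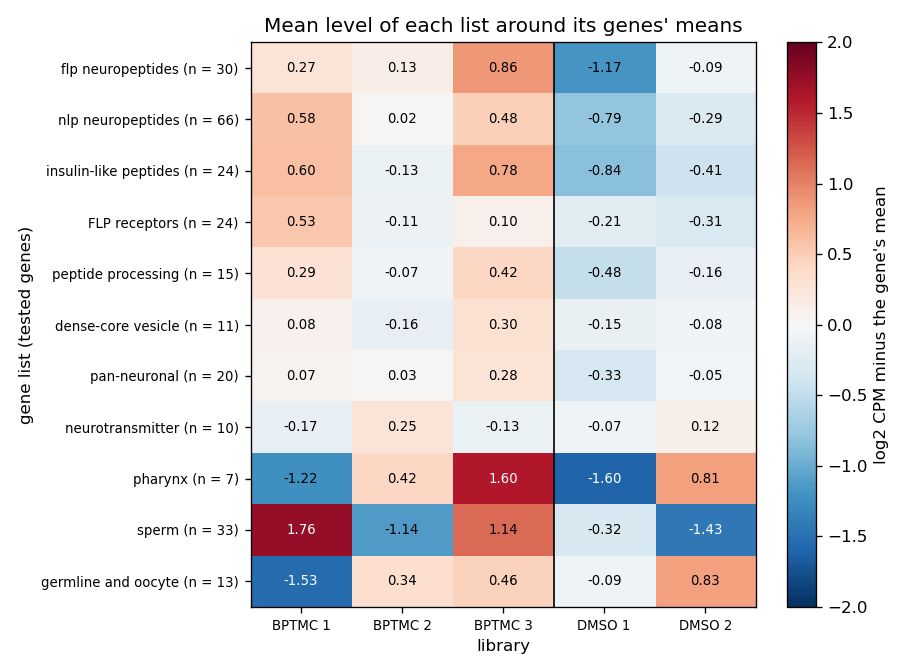
Mean log2 CPM of each gene list around its genes' own means, by library, with BPTMC left of DMSO. The flp row runs from 0.13 to 0.86 in BPTMC and is -1.17 and -0.09 in DMSO replicates 1 and 2, while the pan-neuronal row stays between -0.33 and 0.28.

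Receptors for FLP peptides were sparse, with 24 of 45 listed genes tested and 4 dmsr genes at 0 reads in every library. Their median log2 fold change was 0.40, with 18 positive. Over all genes, edgeR and limma-voom called 0 of them and DESeq2 called 1, frpr-6, where DESeq2 called 1.67% of all tested genes higher. frpr-6 was also the only one with an unadjusted p under 0.05 in edgeR, where 7.0% of all tested genes were higher at that level. frpr-6, an FMRFamide receptor family member, had 7.72, 2.96 and 4.37 CPM in BPTMC replicates 1, 2 and 3, against 0.717 and 0.235 CPM in DMSO replicates 1 and 2. Its log2 fold change of 3.38 ± 0.74 (edgeR adjusted p = 0.233) exceeded that of every flp gene. The DMSO levels of frpr-6 were near the floor, so the size of this fold change is uncertain. A gene could also pass the read filter through the BPTMC libraries alone, which bears on the signs in this sparse list. dmsr-8 and dmsr-2, of the DMSR receptor family, had 1.76 ± 0.82 and 1.39 ± 0.79.

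Of 15 genes that make or break down neuropeptides, 10 were positive with a median of 0.84, and edgeR, DESeq2 and limma-voom each called 0 over all genes. Every BPTMC library lay above every DMSO library for 2 of the 15 and below for 3, where 13.4% and 9.96% of all tested genes did. Their summed level was 764, 791 and 938 CPM in BPTMC replicates 1, 2 and 3. It was 896 and 931 CPM in DMSO replicates 1 and 2, so the groups overlapped. Only nep-2 had an unadjusted p under 0.05 in edgeR, where 7.0% of all tested genes were higher at that level. nep-2, a neprilysin that degrades peptides, had 6.70, 6.94 and 7.88 CPM in BPTMC replicates 1, 2 and 3, against 3.49 and 3.06 CPM in DMSO replicates 1 and 2. The libraries of each group were close together, and the log2 fold change was 1.13 ± 0.43 (edgeR adjusted p = 0.620). egl-21, the carboxypeptidase of the pathway, had 36.7, 26.1 and 62.5 CPM in BPTMC replicates 1, 2 and 3, against 13.2 and 28.8 CPM in DMSO replicates 1 and 2, with DMSO replicate 1 lowest and BPTMC replicate 3 highest as in the flp genes. Its log2 fold change was 0.99 ± 0.53, and that of kpc-1, a furin-like convertase, was 1.64 ± 0.88.

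The 11 tested dense-core vesicle genes had a median of 0.08, with 7 positive and 0 with an unadjusted p under 0.05 in edgeR, and 0 passed over all genes by edgeR, DESeq2 or limma-voom. Their smallest p belonged to ida-1, a membrane protein of these vesicles, at 1.24 ± 0.60 on the log2 scale, then rund-1 at 0.89 ± 0.60 and cccp-1 at 0.40 ± 0.44, both partners of RAB-2 in vesicle maturation. Of 10 tested genes of neurotransmitter synthesis and transport, 5 were positive with a median of -0.09 and 0 with an unadjusted p under 0.05 in edgeR, and DESeq2 and limma-voom called 0 over all genes. Among them tbh-1, which makes octopamine, had 46.4, 90.6 and 59.2 CPM in BPTMC replicates 1, 2 and 3, against 98.9 and 99.1 CPM in DMSO replicates 1 and 2, all lower in BPTMC, with a log2 fold change of -0.60 ± 0.39. eat-4, the vesicular glutamate transporter, had -0.69 ± 0.61 and snf-11, a GABA transporter, 0.94 ± 0.70.

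**Figure D4:**
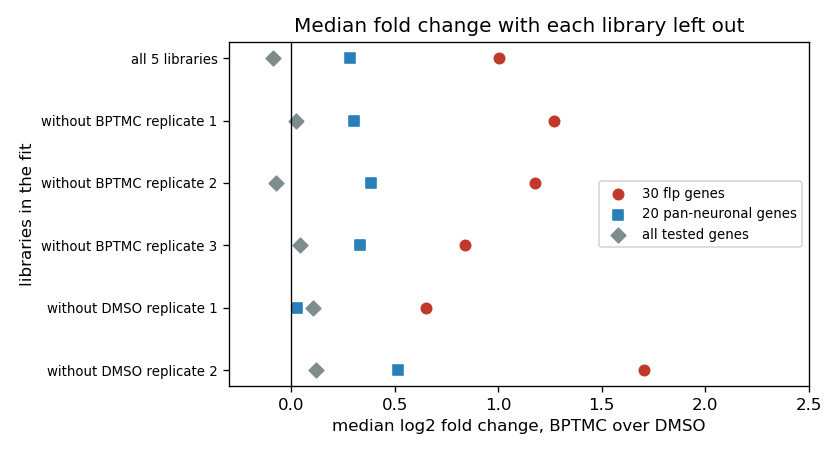
Median log2 fold change of BPTMC over DMSO for the 30 flp genes (circles), 20 pan-neuronal genes (squares) and all tested genes (diamonds), with all 5 libraries and with each left out. The flp median runs from 0.65 without DMSO replicate 1 to 1.71 without DMSO replicate 2 and lies right of the pan-neuronal median in every fit shown.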

How the data were processed

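Each library came as 1 deposited table of raw read counts by gene symbol. The submitters' processing notes name Bowtie2, bedtools and the build WBcel235, while the tools' roles and versions, the annotation and the strand setting were not given in the labels or file headers. Per the labels' protocols, 500 ng of Trizol-extracted total RNA went into Lexogen QuantSeq libraries. All 31 flp symbols matched the Ensembl annotation of WBcel235, which gave coordinates and overlaps. No protein or promoter sequences were used here.

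In R 4.3.3, counts were filtered with filterByExpr (minimum count 10), scaled by TMM, and BPTMC was tested against DMSO with edgeR 4.0.16 by quasi-likelihood. The p-values of all 14238 tested genes were adjusted by Benjamini-Hochberg, and calls needed an adjusted p under 0.05. SE is the absolute log2 fold change over the square root of F. Mean levels of lists use log2 CPM with 2 reads added. DESeq2 1.42.0, limma-voom (limma 3.58.1), other scalings and filters, omission of rRNA genes, each library left out and a replicate block were alternatives. With 1 DMSO library left, it was assumed to vary like the others. No pair of libraries agreed within counting error. By the chi-square of their counts per degree of freedom, the closest pair crossed the groups. BPTMC replicate 3 and DMSO replicate 2 stood at 81.6, against 141 for BPTMC replicates 2 and 3, the closest pair within a group.

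The members and lists were chosen with earlier results of these data known. Values per library are given for members with an unadjusted p under 0.05, the 5 with most CPM and those with a negative fold change, and for up to 3 members per pathway list with the smallest p. Other members were named by role after their values were seen.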

Additional observations from a re-analysis of the deposited data

How the results depend on the processing

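The family's median log2 fold change stayed positive in all 14 alternatives, from 0.65 to 1.71. Each shift was below 0.76, the larger of the 2 groups' SDs of the mean flp level between replicates. That SD is the one between the DMSO libraries, so it cannot judge shifts from leaving 1 of them out. No flp gene was called in 12 of the 14 alternatives. DESeq2 called 1, where it called 1.67% of all tested genes higher. The replicate block called 4 (flp-5, flp-9, flp-15 and flp-18), all higher, where it called 1147 of all 14238 tested genes higher and 599 lower. In the block fit BPTMC replicate 3, which has no DMSO partner, does not enter the BPTMC effect. The 5 flp genes higher at an unadjusted p under 0.05 became 3 with scaling by total counts and 13 with the block, where 7.32% and 15.4% of all tested genes were higher at that level against 7.0% otherwise, and ran from 0 to 9 with 1 library left out. Over all genes, the 15 called became 2 with total counts, 67 with no filter, 3 with at least 5 CPM in 2 or more libraries, 241 by DESeq2, 1 by limma-voom, 4 without rRNA genes, 6 with scaling to pan-neuronal genes (chosen after the data were seen) and 1746 with the replicate block, and ran from 0 to 43 with 1 library left out. The pan-neuronal median ran from 0.027 to 0.51 with 1 library left out. flp-34 ran from -0.37 to 0.0086 with 1 library left out, its sign turning without BPTMC replicate 1; the cause of these shifts was not tested. Same-numbered libraries deviated from their group means together with r = 0.67 for replicate 1 and r = 0.33 for replicate 2 over tested genes, but BPTMC replicate 3, which has no partner, had r = 0.47 with DMSO replicate 2. Deviations within a group cancel out, and those of the 2 DMSO libraries are exact opposites, so these r values depend on one another and cannot settle a pairing. With only 2 shared numbers, the replicate numbers were not taken to pair the libraries. Depth limits members with few reads, such as flp-23, which was not tested, and flp-13 and flp-3, with 2 and 4 reads in DMSO replicate 1.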

Other observations

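Other peptide families had median fold changes close to that of the flp genes. Of 66 tested nlp genes, which encode neuropeptide-like proteins, 58 were positive with a median log2 fold change of 0.99, and of 24 tested insulin-like peptide genes 20 were positive with a median of 0.99. At an unadjusted edgeR p under 0.05, 14 nlp genes were higher and 1 lower, and 6 insulin-like genes were higher and 0 lower. Of all tested genes, 7.0% were higher and 0.4% lower at that level. Over all genes edgeR and limma-voom called 0 in either family. DESeq2 called 3 nlp genes (nlp-25, nlp-39 and nlp-51) and 3 insulin-like genes (ins-7, ins-11 and ins-23), all higher in BPTMC, where it called 1.67% of all tested genes higher. Every BPTMC library exceeded every DMSO library in 26 of 66 nlp genes and 5 of 24 insulin-like genes, where 13.4% of all tested genes did. Every BPTMC library lay below in 1 nlp gene and 0 insulin-like genes, where 9.96% of all tested genes did. Without DMSO replicate 1 the medians were 0.57 and 0.62. A difference between these families and the flp genes was not tested.

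Of 21 transcription factors of neurons, many of which make flp peptides, 9 had enough reads to be tested. All 9 were positive with a median log2 fold change of 1.01, where 45.5% of all tested genes were positive. The read filter could be passed through the BPTMC libraries alone, so this shared sign is not independent of the filter. At an unadjusted edgeR p under 0.05, 2 of the 9 were higher and 0 lower, where 7.0% of all tested genes were higher and 0.4% lower. Over all genes 0 passed edgeR, DESeq2 or limma-voom. egl-44, a TEAD factor that is also made outside neurons, had 37.9, 10.1 and 23.5 CPM in BPTMC replicates 1, 2 and 3, against 8.28 and 6.11 CPM in DMSO replicates 1 and 2, a log2 fold change of 1.73 ± 0.59. unc-3, a factor of cholinergic motor neurons, had 1.54 ± 0.66 and zag-1 1.58 ± 0.97. The zag-1 value rests on 0.582 and 0.047 CPM in DMSO replicates 1 and 2.

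flp-4 on chromosome II and flp-33 on chromosome I had the same counts in 3 of 5 libraries, with 127 reads each in BPTMC replicate 3, 34 in DMSO replicate 1 and 50 in DMSO replicate 2. They differed in BPTMC replicates 1 and 2, with 115 and 55 reads for flp-4 and 39 and 53 for flp-33.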
